A study of Homo sapiens with 44 samples.

Results

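The neuropeptide genes described here are CRH, NPY, GAL, VIP, SST, TAC1, CARTPT, ADCYAP1, NMU and PENK, 10 of the 19923 genes in each count table, found by their gene symbols. They were listed by function, except CRH, which was also chosen by its differences between treated and control inputs of Kelly cells at 1 day and of NGP cells. Those values of CRH are therefore given as a description with no test, in every contrast that uses those inputs. The libraries came from 2 human neuroblastoma lines, Kelly and NGP, both labelled MYCN-amplified and wild type. Cells were treated with 8 uM STM2457, an inhibitor of the m6A methyltransferase METTL3, or with DMSO, for 1 or 6 days in Kelly and 6 days in NGP, with 3 samples in each group. Kelly cells were also grown under the skin of nude mice, male and female, that received 50 mg/kg STM2457 or vehicle (labelled DMSO) by daily peritoneal injection for 14 days, with 2 samples in each group. For every sample there was an input library, which is RNA-seq of poly(A) RNA, and a RIP library, which is the RNA pulled down with an antibody against m6A. The samples are labelled as replicates of 1 cell line each, and no label says that they were separate cultures or animals, so p-values measure the spread between these samples, which may be technical.

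Neuropeptides are made as precursor proteins, cut by prohormone convertases in secretory granules, and released to act on G protein-coupled receptors of neighbouring or distant cells. Cells of the sympathetic lineage, from which neuroblastoma arises, make several of them, among them neuropeptide Y, galanin and vasoactive intestinal peptide. The m6A mark is set on mRNA by a complex that holds METTL3, is found mostly in long internal exons and near stop codons, and is known to alter the stability and translation of the mRNA that carries it.

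Input libraries held 24.1 to 26.6 M counts in Kelly cells at 1 day, 5.77 to 31.5 M at 6 days, 5.49 to 11.6 M in NGP cells and 2.14 to 7.27 M in xenografts. RIP libraries held 25.9 to 36.5, 10.5 to 25.6, 13.1 to 24.1 and 4.68 to 11.8 M counts in the same order. Levels are in CPM (counts-per-million of the library total). A list of 10 noradrenergic neuroblastoma markers summed to between 12290 and 37480 CPM over all input libraries. Fibroblast markers summed to at most 187.5 CPM, in treated NGP cells, and markers of endothelium, blood and Schwann cells to at most 17.6 CPM. In control xenografts COL1A2, LUM, DCN, PECAM1, PTPRC and the haemoglobin genes HBB, HBA1 and HBA2 had 0 counts. Through its other genes the fibroblast list summed to 113.2 to 144.1 CPM there, and to 136.5 to 143.4 CPM in Kelly DMSO cells at 6 days. Endothelial markers summed to 15.35 to 17.6 CPM in control xenografts, against at most 3.912 CPM in cultured Kelly cells. Reads were assigned to human genes only, and the sources used here do not give how mouse reads in the xenografts were treated. In bulk RNA, fewer cells that make a peptide and less RNA per cell cannot be told apart.

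The set of neuropeptide genes in use differed between the models. Divided by the counted transcript length, so that genes can be compared, SST led in Kelly DMSO cells at 6 days with 615 CPM per kb, followed by GAL at 166, NPY at 136 and CARTPT at 129 CPM per kb, of which NPY and CARTPT overlap between libraries. CRH stood far lower at 9.90 CPM per kb, above 76.9% of the genes detected. In NGP DMSO cells GAL at 166 and NPY at 54.2 CPM per kb were the only members above 1 CPM per kb. In control xenografts SST stood at 463, CARTPT at 391, GAL at 116, NPY at 68.6 and CRH at 47.7 CPM per kb. TAC1, which encodes substance P and neurokinin A, had 0 counts in all 44 libraries, whose counts sum to 747979427, which allows a level of up to 0.00401 CPM over the series (3 counts, counting error only).

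Against NGP cells at the same time, SST, CARTPT, ADCYAP1, NPY and VIP were higher in Kelly DMSO cells at 6 days, 5 of the 6 members tested (edgeR quasi-likelihood test, adjusted p under 0.05), where 31.7% of all genes tested were higher. SST, the inhibitory hormone somatostatin, had 401, 360 and 358 CPM in Kelly cells and 0 counts in all NGP libraries. With a floor of 3 counts in each NGP library, it was at least 1010-fold higher, CARTPT at least 386-fold and ADCYAP1 at least 5.37-fold. NPY differed by 1.51 on the log2 scale (SE 0.141, adjusted p = 7.54e-06) and VIP by 2.47 (SE 0.788, adjusted p = 0.0194). Without NGP DMSO replicate 1 the adjusted p of VIP was 0.0709, and without replicate 3 it was 0.0698. GAL did not pass the test at 0.20 (SE 0.116, adjusted p = 0.158), but did without NGP DMSO replicate 2 (0.28, adjusted p = 0.0164). For CRH, 4.76 (SE 0.625) is a description. SST, CARTPT, ADCYAP1 and VIP passed the filter on low counts through the Kelly libraries alone, so the count of 5 supports nothing beyond the values given.

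Between the Kelly DMSO inputs of 1 and 6 days, SST, NPY, VIP, CARTPT, ADCYAP1 and GAL were all higher at 6 days, 6 of 6 members tested, against 37.9% of all genes. SST averaged 18.5 ± 0.489 CPM (SD, n = 3) at 1 day and 373 ± 24.5 CPM at 6 days, a difference of 4.70 on the log2 scale (SE 0.0681, edgeR adjusted p = 1.02e-23). NPY went from 10.6 ± 1.33 to 121 ± 7.66 CPM (3.89, SE 0.0897), CARTPT from 20.4 ± 1.00 to 142 ± 5.80 CPM (3.17, SE 0.0717) and GAL from 85.6 ± 4.62 to 216 ± 9.58 CPM (1.70, SE 0.0603). The groups of these 4 genes did not overlap. VIP passed the filter through the 6-day libraries alone, and ADCYAP1 with 1 library of 1 day. The count of 6 therefore supports nothing beyond the values given. For CRH, 1.25 (SE 0.18) is a description. Time in culture and the processing of each experiment cannot be told apart, since the 2 sets of inputs lay in different folders of the count headers.

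In control xenografts, set against Kelly DMSO cells at 6 days, CRH and CARTPT were higher, where 20.4% of all genes were higher, and SST, NPY, GAL and VIP were lower, where 20.4% of all genes were lower, out of 7 members tested. CRH had 66.7 and 56.1 CPM in the tumours against 14.0, 14.3 and 9.96 CPM in culture, a difference of 2.32 on the log2 scale (SE 0.188, edgeR adjusted p = 4.84e-05). CARTPT had 430 and 433 CPM against 137, 149 and 141 CPM (1.66, SE 0.0635, adjusted p = 2.18e-06). SST was lower by -0.35 (SE 0.0716), GAL by -0.47 (SE 0.0939) and NPY by -0.90 (SE 0.174). VIP had 0 counts in both control tumours, at least 2.56-fold below culture, and passed the filter through the cultured libraries alone. ADCYAP1 (1.59, SE 0.595, adjusted p = 0.0626) did not pass, but did without control tumour 1 (2.09, adjusted p = 0.000358). Site of growth, 14 days and the processing of the experiment cannot be told apart in this contrast.

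**Figure D1:**
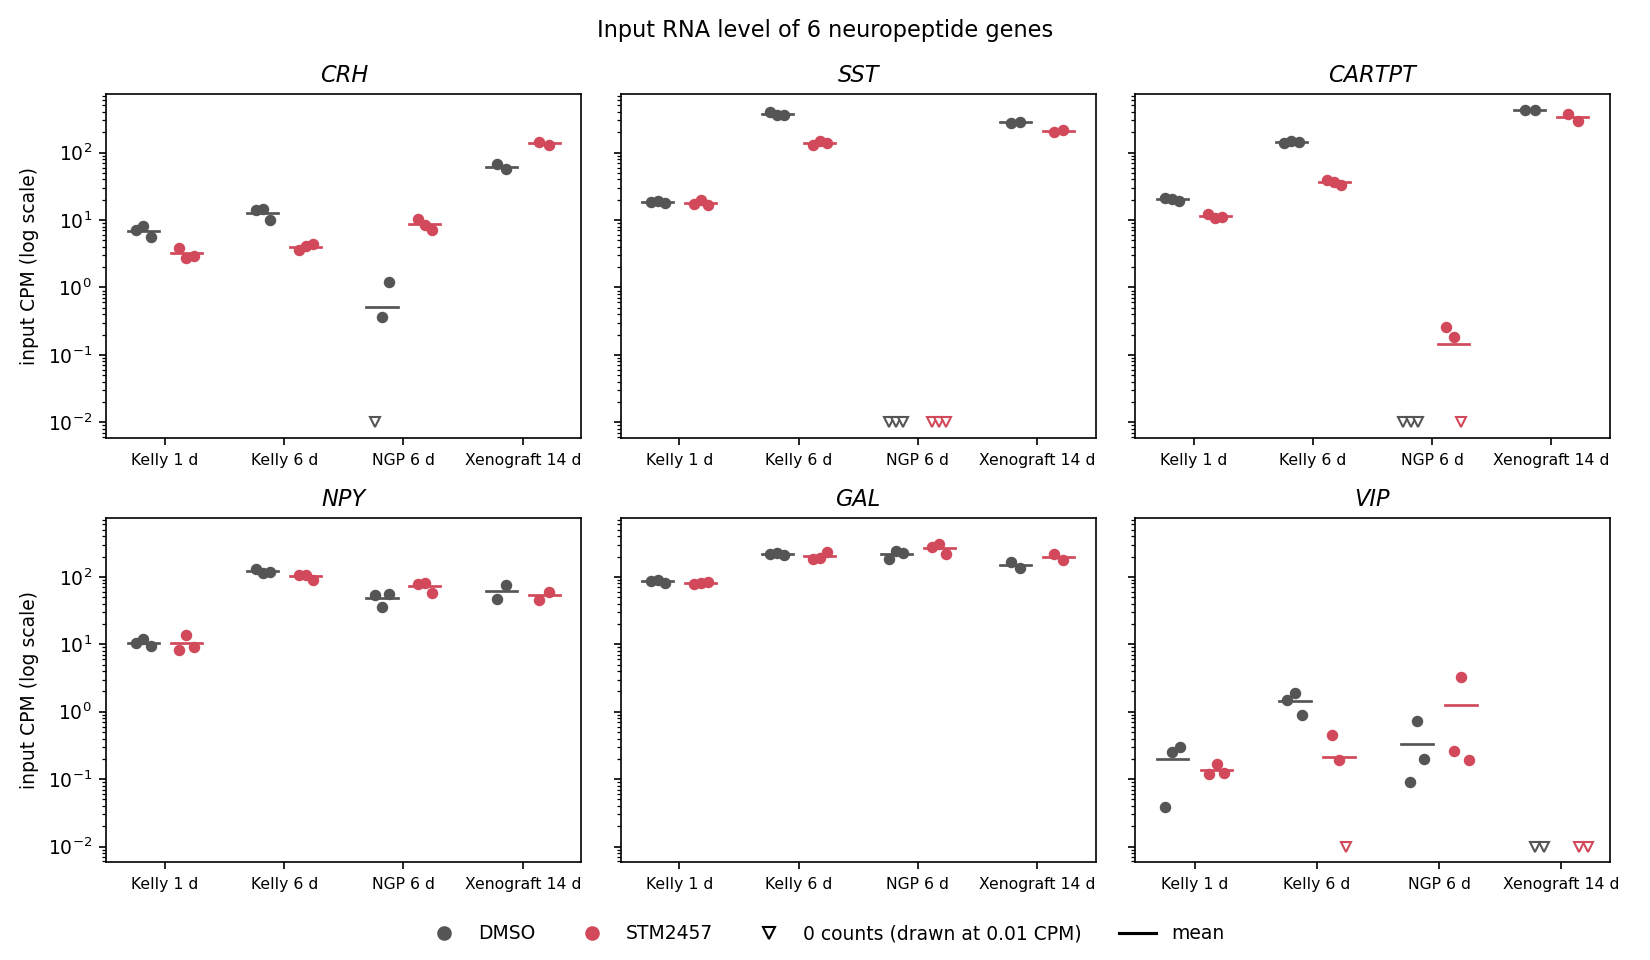
Input level of 6 neuropeptide genes in CPM on a log scale, by experiment; each point is 1 library, lines are means of 3 libraries (2 in xenografts), and open triangles at the bottom are libraries with 0 counts. SST and CARTPT reach 401 and 149 CPM in Kelly cells at 6 days and 283 and 433 CPM in xenografts and are at or near 0 in NGP cells, and the treated CRH libraries lie below their controls in cultured Kelly cells and above them in NGP cells and xenografts.

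The promoters of SST, CARTPT and VIP are shown because these genes fell by more than 2-fold with STM2457 in Kelly cells at 6 days, as did CRH, which was not matched in the promoter table. The 3 were picked after their values were seen. Each is the 250 bases before the annotated start site, 5′ to 3′ on the strand of the gene, from RefSeq (GRCh38.p14), and capitals mark every TGACGTCA, the cyclic AMP response element (CRE), and TATAAA on either strand. SST lies on chromosome 3 (187670395 to 187670644, minus strand), CARTPT on chromosome 5 (71719025 to 71719274, plus strand) and VIP on chromosome 6 (152750547 to 152750796, plus strand).
SST: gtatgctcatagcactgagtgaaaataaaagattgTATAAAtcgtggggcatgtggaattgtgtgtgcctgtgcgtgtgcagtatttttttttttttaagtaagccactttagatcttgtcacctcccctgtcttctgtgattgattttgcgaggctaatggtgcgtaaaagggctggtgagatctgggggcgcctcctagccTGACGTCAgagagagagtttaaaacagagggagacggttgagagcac
CARTPT: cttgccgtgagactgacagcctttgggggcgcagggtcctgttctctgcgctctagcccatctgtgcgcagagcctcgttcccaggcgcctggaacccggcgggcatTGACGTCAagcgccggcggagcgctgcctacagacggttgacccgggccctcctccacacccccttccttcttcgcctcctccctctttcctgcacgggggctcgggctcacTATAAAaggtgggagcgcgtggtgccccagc
VIP: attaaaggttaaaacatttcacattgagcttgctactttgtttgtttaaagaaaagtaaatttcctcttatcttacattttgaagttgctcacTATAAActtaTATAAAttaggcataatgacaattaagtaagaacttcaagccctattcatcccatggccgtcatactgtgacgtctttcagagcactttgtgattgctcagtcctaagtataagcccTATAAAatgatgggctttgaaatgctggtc

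The 7 members matched in the RefSeq promoter table were NPY, VIP, SST, TAC1, CARTPT, ADCYAP1 and NMU; CRH, GAL and PENK were not matched. In windows from 250 bases before to 50 after the start site, TGACGTCA was present in SST, beginning 47 bases before the start, and in CARTPT, beginning 143 bases before it. Of 35116 promoters of the same length 1.85% held TGACGTCA. The 5-letter part TGACG, which every TGACGTCA contains on both strands, was present without the whole element in VIP, 89 and 79 bases before the start, and in TAC1, 197 bases before it; 24.6% of promoters held it. TATAAA was present in SST (215 bases before), CARTPT (31 before) and VIP (157, 147 and 30 before), and in 11.5% of promoters. NPY, ADCYAP1 and NMU held none of these letters in this window. These are matches of letters, and binding was not measured.

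CRH encodes corticotropin-releasing hormone, which drives the pituitary-adrenal stress axis, and lies on chromosome 8. In Kelly cells at 1 day it had 7.01, 8.16 and 5.57 CPM with DMSO and 3.84, 2.77 and 2.95 CPM with STM2457. This log2 difference of -1.14 (SE 0.198) is among the values for which CRH was listed. At 6 days, which did not serve to choose it, CRH fell from 14.0, 14.3 and 9.96 CPM to 3.59, 4.16 and 4.34 CPM, a log2 change of -1.79 (SE 0.189, edgeR adjusted p = 4.06e-06). The treated and control libraries did not overlap at either time.

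In NGP cells CRH was covered by 0, 2 and 12 counts with DMSO, or 0, 0.358 and 1.19 CPM, and by 119, 47 and 75 counts with STM2457, or 10.3, 8.56 and 7.18 CPM. The fitted difference of 3.94 (SE 0.787) is a description for the same reason, and it was 5.85 without DMSO replicate 3, which holds 12 of the 14 control counts. In xenografts CRH had 66.7 and 56.1 CPM with vehicle and 145 and 129 CPM with STM2457. The treated tumours lay above both controls, with a log2 difference of 1.28 (SE 0.242) that did not pass the edgeR test in the 2 against 2 design (unadjusted p = 0.000574, adjusted p = 0.325). DESeq2 called it (1.29, adjusted p = 0.00778), and adjusted p-values over all alternatives ran from 6.3e-05 to 1.0 at differences between 1.14 and 1.42. The edgeR adjusted p was 0.000419 and 6.3e-05 without treated replicate 1 and 2. Endothelial markers summed to 15.4 to 17.6 CPM in control and 9.79 to 12.5 CPM in treated tumours, whose part in the result was not tested. The treated CRH libraries were thus below control in cultured Kelly cells at both times and above control in NGP cells and in Kelly tumours. In tumours, with 2 samples in each group, such a separation can arise easily without an effect. Its share over all genes was not counted.

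CARTPT, the cocaine- and amphetamine-regulated transcript whose peptide curbs feeding, fell in Kelly cells at 1 day and further at 6 days. SST was called lower at 6 days but not at 1 day. SST had 18.5, 19.01 and 18.03 CPM with DMSO at 1 day and 17.4, 19.7 and 16.4 CPM with STM2457, which overlap (-0.08, SE 0.103, adjusted p = 0.653). At 6 days it fell from 401, 360 and 358 CPM to 129, 147 and 141 CPM (-1.54, SE 0.0685, edgeR adjusted p = 3.41e-10). Even the treated cells at 6 days therefore held more SST RNA than any library at 1 day.

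CARTPT fell at 1 day from 21.3, 20.5 and 19.4 CPM to 12.2, 10.6 and 11.2 CPM (-0.87, SE 0.109, edgeR adjusted p = 3.92e-05). At 6 days it fell from 137, 149 and 141 CPM to 38.6, 36.2 and 33.3 CPM (-2.07, SE 0.0743, adjusted p = 3e-11). No treated library overlapped a control at either time. The change at 6 days minus that at 1 day was -1.44 for SST (SE 0.102, adjusted p = 2.39e-09) and -1.18 for CARTPT (SE 0.117, adjusted p = 5.09e-07). These were 2 of the 7 members tested for this difference, where 4.73% of all genes were lower. The 2 times were separate experiments, so time of treatment and experiment cannot be told apart in this difference.

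In NGP cells SST had 0 counts in all 12 input and RIP libraries, and CARTPT had 3, 1 and 0 input counts with STM2457 and 0 with DMSO. In xenografts SST had 279 and 283 CPM with vehicle and 199 and 216 CPM with STM2457 (-0.31, SE 0.163, adjusted p = 0.644). CARTPT had 430 and 433 CPM with vehicle and 377 and 291 CPM with STM2457 (-0.24, SE 0.162, adjusted p = 0.727). Treated and control tumours did not overlap for either gene, but neither passed the test, by which 0.0% of all genes were called. With 2 samples in each group a lack of overlap can arise easily without an effect. Its share over all genes was not counted.

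VIP and ADCYAP1 encode related peptides of the secretin family, vasoactive intestinal peptide and PACAP, which raise cyclic AMP in target cells. VIP fell in Kelly cells at 6 days, from 18, 24 and 11 counts (1.49, 1.88 and 0.891 CPM) to 13, 6 and 0 counts (0.453, 0.191 and 0 CPM), a log2 change of -2.41 (SE 0.572, edgeR adjusted p = 0.00504). Only the DMSO libraries reached the cutoff of the filter on low counts, 0.796 CPM, so VIP entered this test through the group where it is high. In one fit of all inputs its adjusted p was 0.199. In NGP cells VIP had 1, 4 and 2 counts with DMSO and 3, 18 and 2 with STM2457, too low to test. ADCYAP1 had 0.993, 2.11 and 2.83 CPM with DMSO at 6 days and 1.78, 2.70 and 2.08 CPM when treated (0.05, SE 0.373, adjusted p = 0.941). In xenografts it had 13 and 60 counts with vehicle and 7 and 0 with STM2457 (-2.14, SE 1.67, adjusted p = 0.781), and it passed the filter there through the control tumours alone.

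NPY, the sympathetic co-transmitter neuropeptide Y, and GAL, galanin, had log2 changes between -0.34 and 0.53, in both directions. NPY fell slightly in Kelly cells at 6 days, from 130, 115 and 119 CPM to 107, 107 and 90.7 CPM (-0.34, SE 0.0775, edgeR adjusted p = 0.00358), a call lost in one fit of all inputs (adjusted p = 0.419). At 1 day its libraries overlapped (-0.05, SE 0.169, adjusted p = 0.882). In NGP cells NPY had 54.0, 35.8 and 55.4 CPM with DMSO and 78.8, 81.8 and 58.2 CPM with STM2457, which did not overlap but did not pass (0.52, SE 0.196, adjusted p = 0.152). The change in Kelly cells at 6 days minus that in NGP cells was -0.84 for NPY (SE 0.217, adjusted p = 0.0674 by edgeR and 0.013 by DESeq2). None of the 6 members tested for that difference was called, against 1.36% of all genes. The unadjusted p was under 0.05 for 4 members, and 2 were called by DESeq2 and, by edgeR, without NGP treated replicate 3. SST had 0 counts in every NGP input, which fixed its result, and CARTPT and ADCYAP1 had 0 in the NGP DMSO inputs. With VIP, they were too low to test in NGP inputs alone, so they entered through the Kelly libraries. CARTPT and VIP are among the 4, so these counts support nothing beyond the value given for NPY. Both difference contrasts share the Kelly inputs of 6 days.

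GAL had 215, 226 and 207 CPM with DMSO in Kelly cells at 6 days, against 186, 193 and 232 CPM when treated (-0.21, SE 0.074, adjusted p = 0.0508). That value was near the threshold: without treated replicate 3 it was -0.28 (adjusted p = 0.00139). At 1 day the change was -0.11 (SE 0.0629, adjusted p = 0.257), and in NGP cells it was 0.24 (SE 0.164, adjusted p = 0.484). In xenografts GAL had 164 and 137 CPM with vehicle and 222 and 178 CPM with STM2457 (0.53, SE 0.205, adjusted p = 0.544; 0.67 and adjusted p = 0.0282 without treated tumour 2).

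PENK, the precursor of the enkephalins, and NMU, which encodes neuromedin U, were barely covered. PENK had between 4 and 27 counts in Kelly inputs except for 2 counts in 1 treated library at 6 days, at most 1 count in xenograft inputs, and 0 counts in all 12 NGP libraries. It did not pass the test at 6 days (-0.93, SE 0.572, adjusted p = 0.255). NMU passed the filter on low counts in no contrast; its highest input count was 23, in NGP DMSO replicate 1, where the other NGP inputs had 0. TAC1 could not be tested anywhere.

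Over the 10 members, 5 passed the filter in Kelly inputs at 1 day, 8 at 6 days, 3 in NGP inputs and 6 in xenograft inputs. At 1 day 1 of 4 tested members fell, where 8.06% of all genes fell, and CRH was left out of the count. At 6 days 5 of 8 fell, namely CRH, SST, CARTPT, VIP and NPY, where 14.7% of all genes fell; VIP passed the filter through its DMSO libraries alone, and a single fit of all inputs called 3. In NGP cells 0 of 2 were called (1 with an unadjusted p under 0.05, 0 by DESeq2), where 4.23% of all genes rose or fell. In xenografts 0 of 6 were called (2 with an unadjusted p under 0.05, 1 by DESeq2), where edgeR called 0.0% of all genes.

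**Figure D2:**
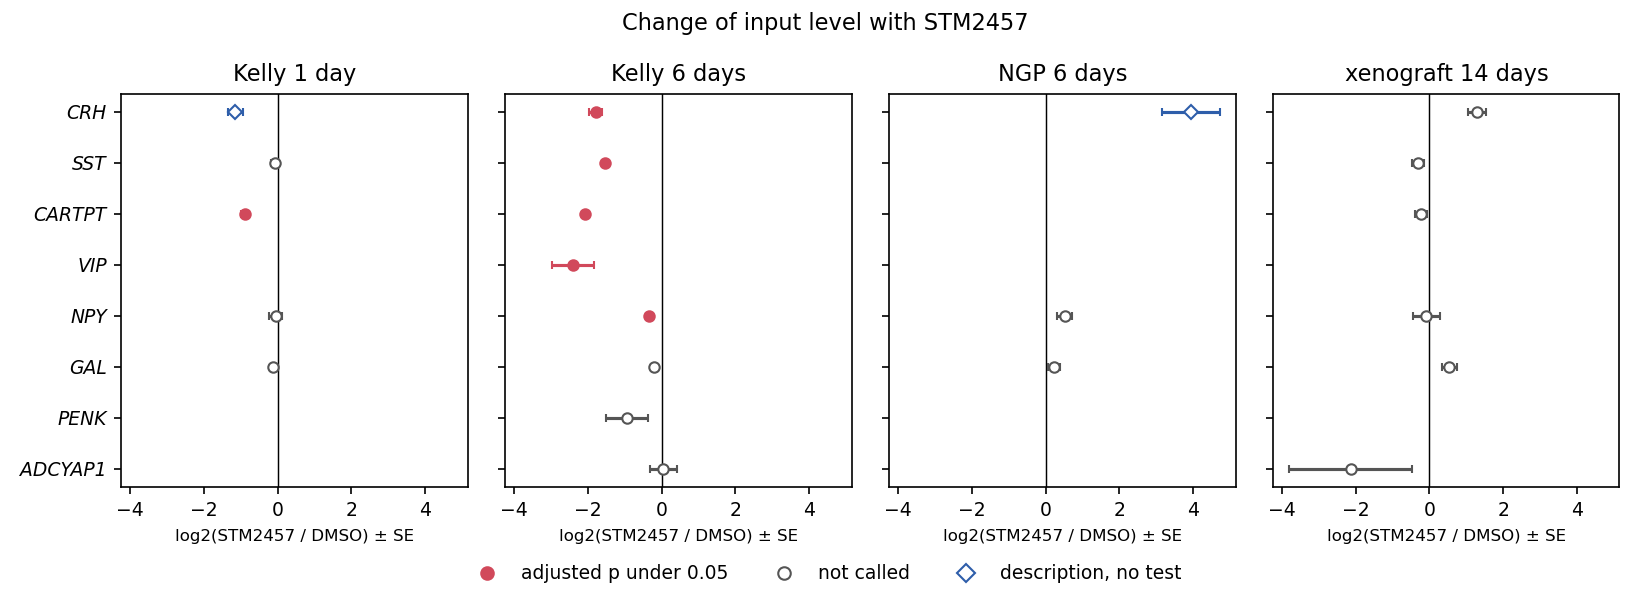
Log2 change of input level with STM2457 against DMSO, with its standard error, for 8 neuropeptide genes that passed the filter in at least 1 experiment; filled points have an edgeR adjusted p under 0.05 and diamonds are CRH values given as a description. Filled points appear only in cultured Kelly cells and all lie below 0, and CRH lies at -1.79 in Kelly cells at 6 days and at 1.28, not called, in xenografts.

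The partners of these peptides were read from lists of receptors, processing enzymes, peptidases and other neuropeptides. Of the 7 receptor genes tested in Kelly inputs at 6 days, 2 rose, where 11.9% of all genes rose, and 2 fell, where 14.7% of all genes fell (median 0.18, against 0.00 over all genes). VIPR2, a receptor shared by VIP and PACAP, rose from 8.65 ± 1.14 to 19.3 ± 0.792 CPM (SD, n = 3; 1.05, SE 0.139), and OPRD1, the delta opioid receptor for enkephalins, rose by 0.49 (SE 0.128; adjusted p = 0.0643 without treated replicate 2). CRHR2, a CRH-family receptor, fell from 7.61 ± 0.771 to 4.15 ± 0.315 CPM (-0.97, SE 0.197), and SSTR3, a somatostatin receptor, fell by 0.89 on the log2 scale (SE 0.167). In one fit of all inputs these 4 receptor calls were lost, with adjusted p from 0.0869 to 0.457. In NGP cells 2 of 12 receptors rose, where 2.07% of all genes rose, and 1 fell, where 2.16% of all genes fell. VIPR2 rose from 7.86 ± 1.98 to 28.2 ± 7.13 CPM (1.78, SE 0.304), ADCYAP1R1, the PACAP receptor, rose from 26.1 ± 3.82 to 49.0 ± 1.40 CPM (0.84, SE 0.202), and SSTR2 fell from 182 ± 10.9 to 122 ± 10.4 CPM (-0.66, SE 0.152). The calls of ADCYAP1R1 and SSTR2 were lost without DMSO replicate 3 (adjusted p = 0.102 and 0.0859) or treated replicate 1 (0.0988 and 0.109). VIPR2 was the receptor called in both lines at 6 days.

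Of 10 processing genes tested in Kelly cells at 6 days, 0 rose and 3 fell, against 11.9% and 14.7% of all genes (median -0.20). PCSK5, a prohormone convertase, fell from 4.01 ± 0.547 to 1.04 ± 0.148 CPM (-2.05, SE 0.314). QPCT, which forms the pyroglutamate end of some peptides, fell by 0.98 (SE 0.213), and CPE, the carboxypeptidase that trims cut precursors, by 0.30 (SE 0.0709). In one fit of all inputs their adjusted p ran from 0.0715 to 0.362. At 1 day CPD, a related carboxypeptidase, rose by 0.34 (SE 0.0952), where 9.41% of all genes rose, and no other of 11 was called. Leaving out either of DMSO replicates 1 and 2 or treated replicates 1 and 2 lost it (adjusted p from 0.053 to 0.0945), as did one fit of all inputs (0.943). Of 7 peptidases at 6 days 2 fell, against 14.7% of all genes, among them ECEL1, from 58.0 ± 1.2 to 18.6 ± 2.09 CPM (-1.78, SE 0.0942). ACE, which cleaves several peptide hormones, rose at 1 day (0.21, SE 0.0602) and in NGP cells (1.08, SE 0.272). The first call was lost without treated replicate 2 or 3 (adjusted p = 0.0653 and 0.149), with a replicate block (0.0518) and in one fit of all inputs (1.0), and the second without replicate 1 or 3 of either NGP group (0.065 to 0.151). In xenografts none of the 6 receptors, 7 processing genes and 8 peptidases tested was called by edgeR.

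Of 13 other neuropeptide or peptide hormone genes tested in Kelly cells at 6 days, 6 fell and 0 rose, against 14.7% and 11.9% of all genes (median -0.54). ADM2, an adrenomedullin-family peptide, fell from 13.2 ± 1.5 to 2.12 ± 0.368 CPM (-2.80, SE 0.206), ADM, adrenomedullin, from 2.27 ± 1.33 to 0.405 ± 0.339 CPM (-2.97, SE 0.659), GHRH by 1.75 (SE 0.406) and NPW by 0.61 (SE 0.125). ADM passed the filter there through its DMSO libraries alone, and the calls of GHRH and NPW were lost in one fit of all inputs (adjusted p = 0.473 and 0.39). In NGP cells 1 of 12 rose and 1 fell, against 2.07% and 2.16% of all genes, and the one that rose was ADM, from 1.08 ± 0.534 to 13.1 ± 0.444 CPM (3.58, SE 0.519, edgeR adjusted p = 0.000139). ADM was thus lower with STM2457 in Kelly cells at 6 days and higher in NGP cells, and its change in Kelly cells minus that in NGP cells was -6.48 (SE 0.924, edgeR adjusted p = 0.000849). ADM was singled out after its values were seen, so this p-value adds no independent support. In the same contrast 2 of 16 genes of this list were lower and 0 higher, where 1.36% of all genes were higher or lower. The other was ADM2 (-1.96, SE 0.4, edgeR adjusted p = 0.0164). This difference is smaller in size than the fall of ADM2 in Kelly cells (-2.80). Unlike for ADM, opposite directions in the 2 lines cannot be read from it. Of 8 peptidases 1 was called, ACE (-1.02, SE 0.233, edgeR adjusted p = 0.0366). ADM2 and ACE were also named after their input changes were called, so their p-values add no independent support. The median input change of the other neuropeptides was -0.76 in NGP cells, 0.52 in xenografts (11 tested) and 0.03 in Kelly cells at 1 day (15 tested). In xenografts and at 1 day edgeR called 0 of them.

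Across the mean log2(CPM + 1) of the 8 input groups, SST followed CARTPT (Pearson r = 0.963, n = 8 groups) and NPY followed GAL (r = 0.907). Among 14039 genes of at least 1 CPM in some group, the 5 most like CRH were DDX19B (r = 0.958), NPAS1 (0.95), ACSL6 (0.947), RNASEH2A (0.947) and KRT17 (0.945). KRT17 had 159 and 260 CPM on average in control and treated xenografts and at most 11.3 CPM elsewhere. These correlations describe 8 points that share cell lines, libraries and the high CRH level of the tumours.

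The RIP libraries show how much of each RNA the m6A antibody recovered. Ratios are relative to the typical gene of the same libraries, because the spike-ins added to the samples were not analysed here. In Kelly DMSO cells at 1 day GAL had 10.8, 6.71 and 7.08 CPM in RIP libraries against 85.2, 90.4 and 81.2 CPM in inputs, a log2 ratio of -3.32 (SE 0.276, edgeR adjusted p = 1.78e-07). SST (-2.0, SE 0.385, adjusted p = 0.000451) and CARTPT (-1.25, SE 0.376, adjusted p = 0.00973) were also depleted at least 2-fold, and CARTPT was at -0.94 without DMSO RIP replicate 3. These were 3 of 6 tested members, where 29.1% of all genes were depleted. PENK (1.25, SE 0.902), ADCYAP1 (0.80, SE 0.951) and NPY (-0.21, SE 0.37) were not called, and CRH stood at 0.43 (SE 0.396) as a description.

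In Kelly DMSO cells at 6 days the same 3 genes were depleted, out of 8 tested, where 27.3% of all genes were. SST had 30.9, 32.5 and 28.6 CPM in RIP libraries against 401, 360 and 358 CPM in inputs (-3.65, SE 0.363, edgeR adjusted p = 3.42e-06). GAL had a log2 ratio of -2.77 (SE 0.241, adjusted p = 1.08e-06) and CARTPT of -2.70 (SE 0.871, adjusted p = 0.0184). Leaving out any one DMSO RIP library raised the adjusted p of CARTPT to between 0.0521 and 0.0634. CRH stood at -1.11 (SE 0.875, adjusted p = 0.295; 0.0491 without treated RIP replicate 1) and NPY at 0.56 (SE 0.311, adjusted p = 0.141).

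In NGP DMSO cells GAL was depleted, with 44.4, 52.3 and 46.1 CPM in RIP libraries against 182, 238 and 226 CPM in inputs (-2.27, SE 0.195, edgeR adjusted p = 2.79e-09), 1 of 2 tested, where 19.0% of all genes were depleted. NPY was lower in RIP by less than 2-fold (-0.72, SE 0.268, adjusted p = 0.0259), and by -1.09 without DMSO RIP replicate 1 (adjusted p = 0.000594). In xenografts 0 of 6 were called by edgeR (1 with an unadjusted p under 0.05, 1 by DESeq2), where 3.75% of all genes were enriched or depleted. GAL (-1.55, SE 0.841), CARTPT (-2.03, SE 0.687) and SST (-2.62, SE 1.53) had ratios below 0 there too, and the first pair was called without either treated RIP library (adjusted p from 0.0235 to 0.0276). With RLE factors the median ratio of all genes moved from -0.10 to -0.25 in Kelly cells at 6 days and from -0.16 to -0.30 in xenografts.

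**Figure D3:**
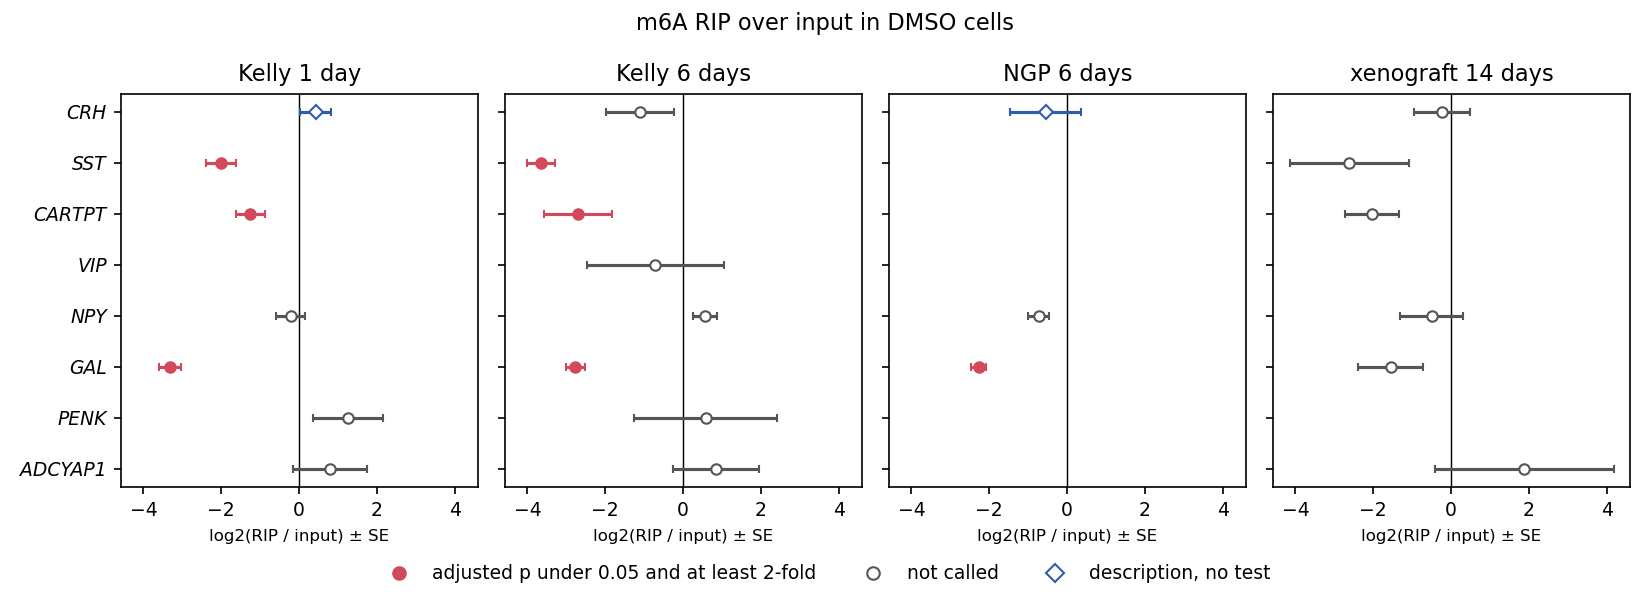
Log2 ratio of RIP to input in DMSO or vehicle samples, with its standard error, for 8 neuropeptide genes; filled points have an edgeR adjusted p under 0.05 and at least a 2-fold ratio, and diamonds are CRH values given as a description. GAL is depleted in all 3 cell culture experiments, SST and CARTPT in both Kelly experiments, and NPY and CRH lie nearer to 0.

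The members differ in exon structure. The longest exon of the canonical GENCODE 44 transcript is 200 nt in NPY, 259 in GAL, 366 in SST, 538 in CARTPT, 851 in VIP, 981 in PENK, 1116 in CRH and 2727 in ADCYAP1, against a median of 1480 over 19662 transcripts. Over all genes tested in Kelly cells at 1 day, the median log2 ratio was -1.85 for 1129 genes whose longest exon is under 400 nt, -0.79 for 2897 genes of 400 to under 1000 nt and 0.42 for 9309 genes of 1000 nt or more. At 6 days these medians were -2.26, -0.88 and 0.45, in NGP cells -0.86, -0.50 and 0.33, and in xenografts -1.82, -0.67 and 0.19. Of the members under 400 nt, GAL lay below the lower quartile of its class in Kelly cells at 1 day (-3.32 against -2.91) and in NGP cells (-2.27 against -1.80), and SST in Kelly cells at 6 days (-3.65 against -3.50). Between the quartiles lay SST at 1 day (-2.0), GAL at 6 days (-2.77), and both in xenografts (SST -2.62, GAL -1.55). NPY has the shortest longest exon of the 8, and its ratio of 0.56 in Kelly cells at 6 days lay above the upper quartile of its class (-0.84). CARTPT at 6 days (-2.70) lay below the lower quartile of its class (-2.41), but not at 1 day (-1.25 against -2.12) or in xenografts (-2.03 against -2.4).

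**Figure D4:**
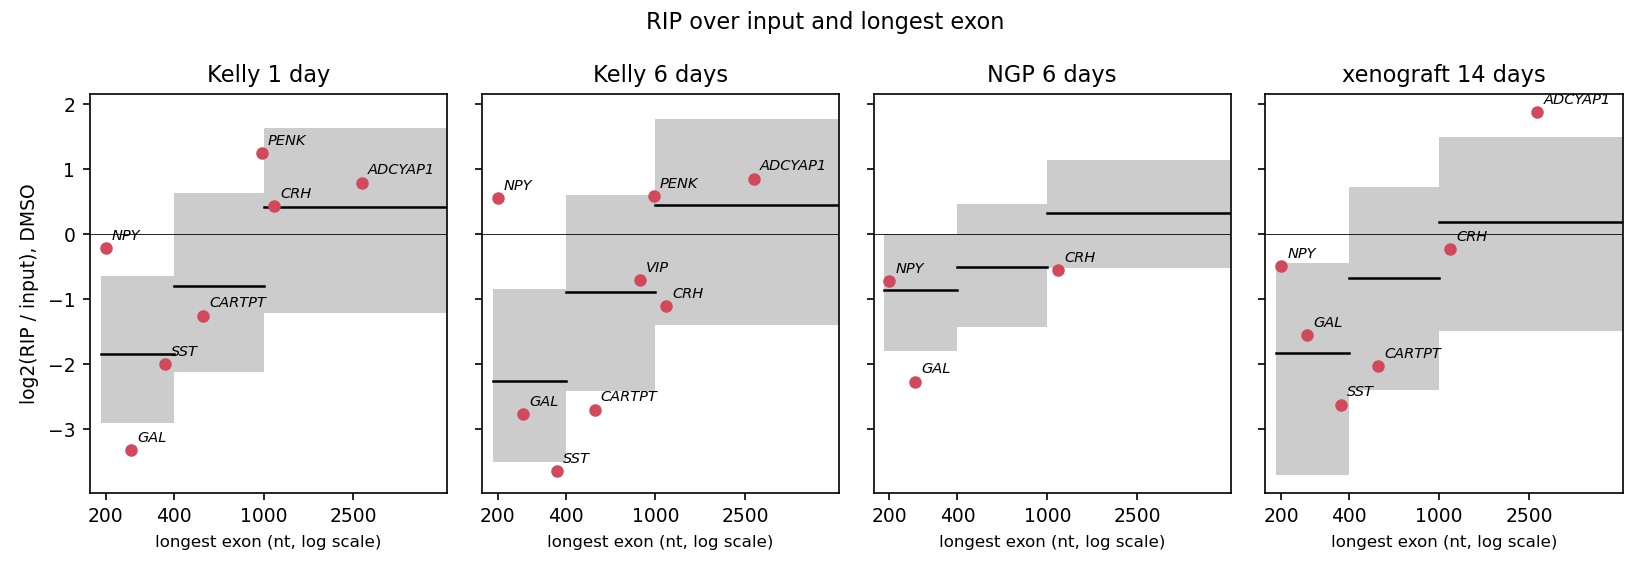
Log2 ratio of RIP to input in DMSO or vehicle samples against the longest exon of the canonical transcript in nt on a log scale; red points are neuropeptide genes, black lines and grey bands are the median and quartiles of all genes tested with a longest exon under 400, of 400 to under 1000, and of 1000 nt or more. The band rises with exon length in each experiment, and NPY lies above the median of its class in all 4 panels.

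GGACT, a common form of the sequence that METTL3 methylates, was counted in the same transcripts. SST, GAL, CARTPT, CRH and NMU had 0, NPY, VIP and PENK had 1, TAC1 had 2 and ADCYAP1 had 3; 12.1% of all transcripts had none, and the median was 0.923 per kb. In Kelly cells at 1 day the 1121 tested genes with none had a median log2 ratio of -0.85, against 0.01 for 12214 genes with at least 1. The transcripts of members with none are 607 (SST), 749 (GAL), 800 (CARTPT), 816 (NMU) and 1288 nt (CRH) long. A short transcript has fewer places for a match, and neither comparison was matched for length. The site in NPY is shown because NPY lay above the median of its exon class in each experiment, and that in VIP for comparison, with GGACT in capitals and up to 10 bases on each side, 5′ to 3′ on the gene's strand. The NPY site lies in the coding part of exon 2 of 4, with its A at base 24285273 of chromosome 7 (GRCh38, plus strand), and the VIP site in the untranslated part of exon 1 of 7, with its A at base 152750891 of chromosome 6 (plus strand). Whether either A is methylated cannot be read from counts per gene.
NPY: ggggctgtccGGACTgaccctcgcc
VIP: cttactcccaGGACTtcagcaccta

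With STM2457 the ratio of RIP to input of GAL, relative to the typical gene, rose in Kelly cells at 1 day. Without the spike-ins, a rise of this relative ratio cannot be read as a gain of m6A. GAL RIP levels went from 10.8, 6.71 and 7.08 CPM to 15.8, 31.6 and 16.8 CPM while its inputs were 85.6 and 80.8 CPM on average, a log2 change of the ratio of 1.57 (SE 0.36, edgeR adjusted p = 0.00981). It was 1 of 6 tested members, where the ratio of 9.53% of all genes rose. SST (1.63, SE 0.528, adjusted p = 0.0528) and CARTPT (1.32, SE 0.527, adjusted p = 0.11) did not pass, and DESeq2 called both (adjusted p = 0.0106 and 0.043). By edgeR, SST passed without DMSO or treated RIP replicate 3 (0.0441 and 0.0102) and CARTPT without DMSO or treated RIP replicate 1 (0.0369 and 0.0401). SST had 2.33, 5.56 and 5.49 CPM in DMSO RIP libraries and 15.8, 14.1 and 7.06 CPM in treated ones, which do not overlap. The CRH ratio differed by 1.60 (SE 0.564), as a description, and that of NPY by 0.12 (SE 0.523).

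The ratios of ADCYAP1 and PENK fell at 1 day, 2 of 6 tested, where 7.62% of all genes fell. Both were too low to test in the inputs and would not have passed the filter without the DMSO RIP libraries, the group where they are high, so their count supports nothing. ADCYAP1 had 11, 43 and 20 counts in DMSO RIP libraries and PENK had 23, 11 and 13, and both had 0 in all 3 treated RIP libraries, while their inputs were covered by 8, 19 and 9 and by 8, 7 and 10 counts with STM2457. With a floor of 3 counts, the RIP level of ADCYAP1 was at least 9.20-fold lower and that of PENK at least 5.48-fold lower with STM2457 (edgeR adjusted p of the ratio 0.0114 and 0.0079). The treated RIP libraries detected 12896 to 13514 genes and the DMSO ones 13728 to 14433, and the part of this in the result was not tested.

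In the other experiments no change of the ratio was called. In Kelly cells at 6 days edgeR called 0 of 8 members (2 with an unadjusted p under 0.05, 0 by DESeq2), where 2.06% of all genes were called and the median over all genes was 0.20. GAL (1.01, SE 0.32, adjusted p = 0.131) and SST (1.38, SE 0.466, adjusted p = 0.157) had values near those of 1 day. Without treated RIP replicate 1 there were 3 calls: GAL (1.28, adjusted p = 0.0014), SST (1.76, adjusted p = 0.000546) and CRH (-2.71, adjusted p = 0.0428). CRH had 7.57, 3.40 and 7.13 CPM in DMSO RIP libraries and 3.09, 0.244 and 0.184 CPM in treated ones, so replicate 1 held 79 of its 87 treated counts. CARTPT RIP counts were 41, 233 and 1 with STM2457, a spread far beyond that of its inputs.

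In NGP cells 0 of 2 were called (1 with an unadjusted p under 0.05, 0 by DESeq2), where edgeR called 0.0% of all genes; GAL differed by 0.59 (SE 0.263, adjusted p = 0.839). In xenografts 0 of 6 were called (0 with an unadjusted p under 0.05, 0 by DESeq2), where edgeR called 0.0% of all genes. The xenograft RIP libraries were uneven for these genes. SST had 90.4 and 5.18 CPM with vehicle and 0.855 and 103 CPM with STM2457, although its 4 inputs lay between 199 and 283 CPM. CARTPT had 159 and 55.0 CPM with vehicle and 64.1 and 352 CPM with STM2457 in RIP libraries. In the fits with RIP libraries the common biological coefficient of variation was 0.398 in Kelly cells at 1 day, 0.52 at 6 days, 0.253 in NGP cells and 0.99 in xenografts, against 0.0725, 0.0913, 0.24 and 0.448 in inputs alone.

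**Figure D5:**
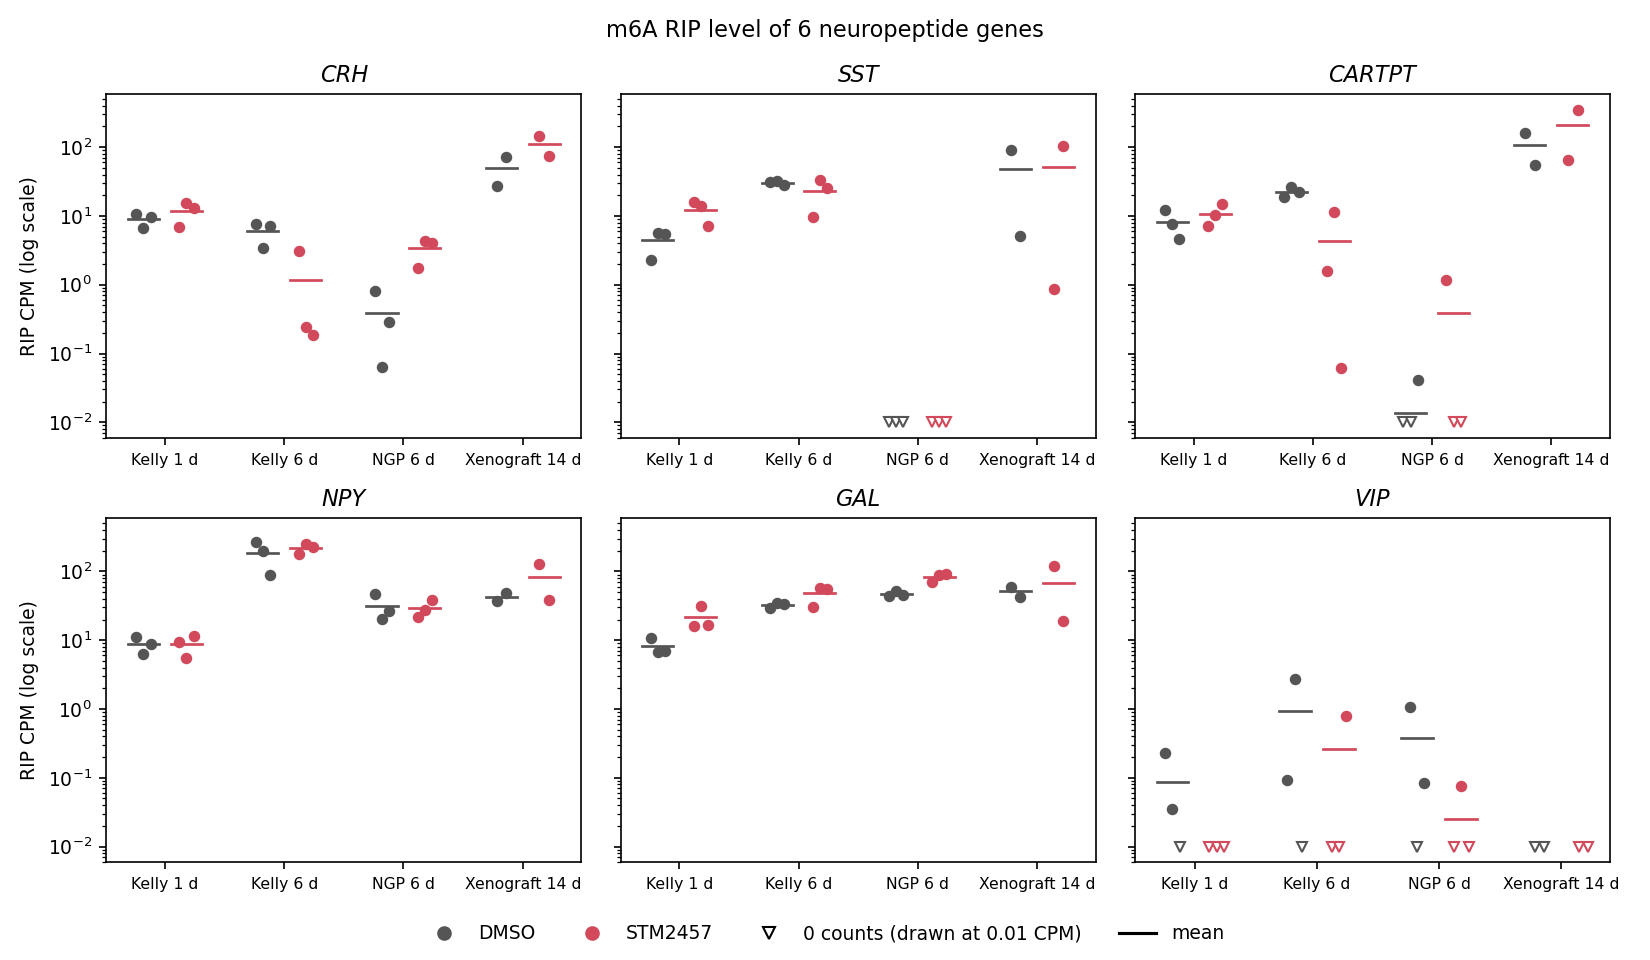
RIP level of 6 neuropeptide genes in CPM on a log scale, by experiment; each point is 1 library, lines are means of 3 libraries (2 in xenografts), and open triangles at the bottom are libraries with 0 counts. GAL RIP levels of treated Kelly cells at 1 day lie above all 3 controls, and SST in xenografts spreads from 0.855 to 103 CPM.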

How the data were processed

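Counts per gene were deposited by the authors as 1 table per library. Per the file headers, they were made with featureCounts 1.5.3 in paired mode on exons of GENCODE 33 protein-coding genes, summed by gene name, with no option for strand or for reads that overlap several genes. Reads had been trimmed with Trimmomatic 0.36 and aligned with HISAT2 2.1.0 to GRCh38, per the submitters' processing notes. No member shares exon sequence with another gene.

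The deposited counts were tested here with the edgeR 4.0.16 quasi-likelihood test (TMM, filterByExpr with a minimum count of 10 and a total of 15, Benjamini-Hochberg over all genes tested, threshold 0.05, two-sided). Each experiment was fitted alone. RIP over input also needed a log2 ratio of at least 1 in size. A change of RIP over input was the interaction of treatment and library type, and a difference of input changes that of treatment and experiment. CPM used the total count, and zero groups a floor of 3 counts. Floors reflect counting error alone. On counts simulated with the library sizes of Kelly cells at 6 days, the fits recovered known changes of well-covered genes. The spread set there was smaller than in the NGP, xenograft and RIP fits. The check therefore does not cover those fits or genes of low count.

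The members and lists were chosen with earlier results of these data known. All 10 members were named, and, from each list, called genes with groups that did not overlap, at most 4 per comparison, largest change first. Alternatives were RLE factors, DESeq2 1.42.0, no filter, a replicate block, 1 fit of all inputs, and leaving out each library.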

Additional observations from a re-analysis of the deposited data

Results flagged for a closer look

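The change of SST with STM2457 differed between the Kelly experiments of 1 and 6 days: 6 days minus 1 day was -1.44 on the log2 scale (SE 0.102, edgeR adjusted p = 2.39e-09). For CARTPT the same difference was -1.18 (SE 0.117, edgeR adjusted p = 5.09e-07). Time of treatment and experiment cannot be told apart in these values. The DMSO level of SST also differed, with 18.5 CPM on average at 1 day and 373 CPM at 6 days.

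CRH libraries moved in opposite directions between experiments, with treated and control libraries not overlapping in any of them. These differences between log2 changes were not tested. Those with Kelly at 1 day or NGP use inputs for which CRH was listed. They were -5.08 for Kelly at 1 day minus NGP and -2.42 for Kelly at 1 day minus xenograft. Kelly at 6 days minus NGP gave -5.73. No contrast was set up for Kelly at 6 days minus xenograft, which gave -3.07. The xenograft change itself was not called (edgeR adjusted p = 0.325), and the NGP controls held 14 counts of CRH. With 2 tumours in each group, a lack of overlap can arise easily without an effect.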

How the results depend on the processing

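Counts of members called changed by over 1.5 times in these cases. One fit of all inputs gave 3 calls in Kelly inputs at 6 days and 2 in xenograft inputs. Xenograft inputs gave 1 call by DESeq2, 1 with no low-count filter, 1 with a replicate block (CRH, adjusted p = 0.00887), and 0 to 2 on leaving out a library. Xenograft RIP over input gave 1 by DESeq2, 1 with no filter and 0 to 2 without a library. NGP RIP over input gave 1 to 2 without a library. The RIP change gave 5 by DESeq2 in Kelly cells at 1 day and 0 to 3 without a library at 6 days. The difference of Kelly at 6 days and NGP gave 2 by DESeq2, 2 with no filter and 0 to 2 without a library.

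The replicate numbers did not pair the inputs (same-number correlations from -0.37 to 0.179). Between input and RIP of the same number and treatment, correlations ran from -0.119 to 0.253, and the main fits did not pair them. The replicate block joined both treatments of a number, so it did not model the pairing of each sample's input and RIP. The block changed no other count of members, and among the list genes it lost ACE at 1 day (0.207, edgeR adjusted p = 0.0518). It reversed uncalled RIP changes of PENK in Kelly cells at 6 days (-0.391), CRH in xenografts (-0.00674) and GAL in xenografts (-0.145).

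Leaving out 1 library reversed these values, uncalled in full, whose ranges follow. Input changes were -0.30 to 0.093 (NPY, Kelly 1 day), -0.265 to 0.401 (ADCYAP1, Kelly 6 days) and -0.387 to 0.30 (NPY, xenograft). RIP over input was -4.75 to 0.0103 (VIP), -0.797 to 1.52 (ADCYAP1) and -1.93 to 1.3 (PENK) in Kelly cells at 6 days, and -1.26 to 0.359 (CRH, xenograft). The RIP change was -0.109 to 0.365 (NPY, Kelly 1 day). At 6 days it was -2.71 to 0.106 (CRH), -4.25 to 5.18 (VIP), -2.34 to 0.538 (CARTPT) and -6.72 to 2.81 (PENK). In xenografts it was -0.878 to 1.06 (CRH), -0.209 to 2.05 (NPY), -2.07 to 1.06 (GAL), -5.02 to 3.40 (SST), -0.0858 to 2.01 (CARTPT) and -7.79 to 5.14 (ADCYAP1). The difference of 6 days and 1 day was -0.12 to 0.0195 (GAL) and -0.298 to 0.654 (ADCYAP1). The causes were not tested. Depth limits VIP, ADCYAP1, PENK and NMU, whose input counts were at most 85 in any library, and xenografts, with 2 tumours a group.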
